A study of Mus musculus with 6 samples.

Results

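Killer lectin-like receptors and the molecules that accompany them on natural killer (NK) cells were followed here as a group of 10 genes, namely Klrg1, Klrd1, Klrk1, Klrc1, Klrb1c, Nkg7, Cd7, Il18rap, Ncr1 and Ctsw. The genes were chosen by name, as receptors, co-receptors and granule genes of NK cells and cytotoxic T cells, with earlier results of these data known. A probe set, the group of oligonucleotides that reads one transcript on an Affymetrix array, was used where it was annotated to exactly 1 of these symbols, and the brightest one stood for its gene. This left 9 of the 10 genes among the 12394 genes compared. Klrb1c, which encodes the NK1.1 antigen of some mouse strains, had no such probe set: its 1 probe set also carries the symbol of a second gene of the family, so no value is given for it.

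The samples were regulatory T (Treg) cells, the CD4 T cells that restrain immune responses under the transcription factor Foxp3, sorted from mouse spleen and lymph nodes by CD4, CD25 and a YFP reporter. The 3 arrays labelled GATA3KO came from Gata3F/FFoxp3YFP-Cre mice, in which Foxp3-driven Cre recombinase can remove a floxed stretch from both alleles of the transcription factor gene Gata3. The 3 arrays labelled WT came from Gata3F/+Foxp3YFP-Cre mice, which carried the same Cre and 1 floxed allele, so Cre expression was shared and one allele of the controls was also open to deletion. The design text gives 3 mice per group, and no age, sex or treatment is given in the labels. Values are log2 intensities, so a difference of 1 is a 2-fold difference, and each change below is the mean of arrays labelled GATA3KO minus the mean of arrays labelled WT.

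The Gata3 probe set did not fall. Its mean was 9.84 ± 0.14 in arrays labelled GATA3KO and 9.48 ± 0.082 in arrays labelled WT (SD, n = 3 each), which goes against the label, and all directions below depend on the labels. The sources used here do not say which part of Gata3 was floxed, and this probe set is no check of the deletion if it lies elsewhere in the gene. Among the markers of the sorted cells, 11 of 12 T cell and Treg genes were above the dim level and 1, Foxp3, was dim, with a mean of 3.94 ± 0.12 in arrays labelled GATA3KO and 3.90 ± 0.048 in arrays labelled WT. Of these 12 genes 1 fell and 1 rose at an adjusted p under 0.05 (limma), where 2.21% of all genes were called either way. Before adjustment 7 had a p under 0.05, against 14.4% of all genes, and 6 did not overlap between the groups, against 19.8%. The change was positive in 11 of the 12 and negative in 1. Markers of the sorted cells thus differed between the groups too, and their part in the receptor values was not tested. Nrp1, which encodes neuropilin 1, common on thymus-derived Treg cells, was 1.71-fold lower, at 10.26 ± 0.087 in arrays labelled GATA3KO and 11.03 ± 0.14 in arrays labelled WT (SD, n = 3 each, limma adjusted p = 0.0015), and passed in all 6 fits with single arrays dropped. Tnfrsf4 (the OX40 gene) rose (0.32 ± 0.053 on the log2 scale, SE, limma adjusted p = 0.0186), a call that was lost without WT replicate 2 (0.0621), GATA3KO replicate 2 (0.0838) or GATA3KO replicate 3 (0.0525). "Dim" means here a mean below 5.55, the 40th percentile of all genes compared. Being above that level does not show expression: of 27 measured genes that belong to other tissues, such as liver albumin, 6 were above it too. Nor does a dim mean show absence, as Foxp3 was dim in cells sorted by the YFP reporter of Foxp3YFP-Cre mice.

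Killer lectin-like receptors are C-type lectin-fold proteins that NK cells and some T cells use to read the surface of other cells. Inhibitory members, such as the pair of CD94 with NKG2A, recognise molecules of healthy cells and restrain the cell that carries them, whereas activating members, such as NKG2D, recognise proteins that appear on stressed cells. In T cells several of these receptors are acquired after repeated stimulation, and KLRG1 is used as a marker of highly differentiated effector T cells and of a differentiated subset of Treg cells.

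Klrg1 and Cd7 fell in arrays labelled GATA3KO, Klrd1 and Klrk1 lay lower on all 3 of those arrays without passing the test, and Nkg7 and Ctsw, the brightest probe sets of the group, had changes near 0. Of the 9 measured genes 2 fell and 0 rose at an adjusted p under 0.05 (limma, Benjamini-Hochberg adjustment over all 12394 genes), where 0.766% of all genes were called lower, 1.44% higher and 2.21% either way. Before adjustment 4 of 9 had a p under 0.05, all of them lower, against 14.4% of all genes in either direction and 5.8% lower. The groups did not overlap in the same 4 genes, again all lower, against 19.8% of all genes in either direction and 8.51% lower. The change was below 0 in 6 of 9 genes and in 47% of all genes. Of the 7 members that were not dim, 2 fell and 4 did not overlap, where among 7436 genes that were not dim 1.21% were called lower, 2.33% higher and 26% did not overlap. The median change of the 9 genes was -0.38, and that of all genes 0.0078. Because the genes were chosen with earlier results known, these counts describe them and are no test of the group. As the RNA came from bulk sorted cells, fewer cells that carry a transcript and less of it per cell cannot be told apart.

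**Figure D1:**
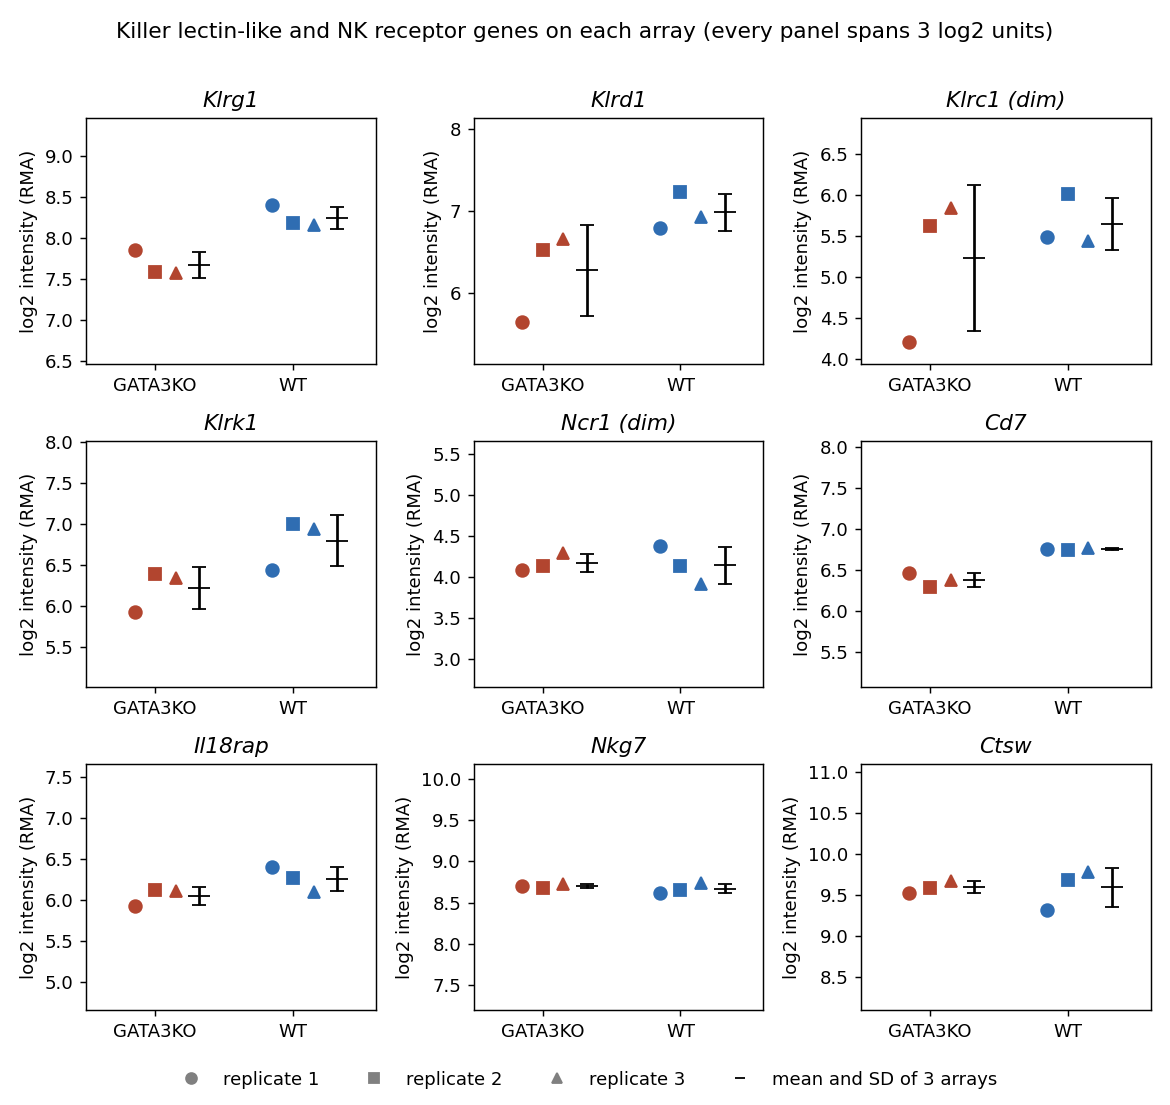
Log2 intensity (RMA) of the 9 measured genes on each array, with the arrays labelled GATA3KO on the left and those labelled WT on the right of each panel. Symbols mark replicates 1 to 3, the black bar the mean and SD of 3 arrays, and every panel spans 3 log2 units. Klrg1, Klrd1, Klrk1 and Cd7 do not overlap between the groups, and replicate 1 of the arrays labelled GATA3KO lies far below the others for Klrd1 and Klrc1.

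Klrg1 encodes an inhibitory receptor for cadherins, the adhesion molecules of epithelial and other cells. Its probe set (1420788_at) read 7.86, 7.59 and 7.57 in replicates 1, 2 and 3 of the arrays labelled GATA3KO, against 8.41, 8.19 and 8.16 in those labelled WT. All 3 arrays labelled GATA3KO were below all 3 labelled WT. The level was 1.49-fold lower, a log2 change of -0.58 ± 0.094 (SE, 95% interval -0.79 to -0.37, limma adjusted p = 0.0173). Klrg1 ranked 89 by p among the 12394 genes. When each array was dropped in turn the call held in 3 of 6 fits. It was lost without WT replicate 2 (adjusted p = 0.0700), GATA3KO replicate 2 (0.0840) or GATA3KO replicate 3 (0.0566), and also without the intensity trend of the variance (0.0766). Its ligands did not pass: Cdh1, Cdh2 and Cdh4, which encode E-, N- and R-cadherin, were all dim, with changes of -0.065, -0.061 and 0.087.

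Cd7, a gene of an immunoglobulin-family co-receptor found on T and NK cells, fell by less but with little scatter. Its probe set (1419711_at) read 6.47, 6.30 and 6.38 in replicates 1, 2 and 3 of the arrays labelled GATA3KO, and 6.76, 6.75 and 6.78 in those labelled WT. The groups were apart, and the 3 arrays labelled WT had an SD of 0.012, and 1.74% of genes had a smaller SD there. The level was 1.30-fold lower (log2 change -0.38 ± 0.077, SE, 95% interval -0.55 to -0.21, limma adjusted p = 0.0398). The size hardly moved when single arrays were left out (-0.42 to -0.34), but the call held only without GATA3KO replicate 1 (adjusted p = 0.0345). It was lost without WT replicates 1, 2 or 3 (0.0795, 0.168 and 0.101), without GATA3KO replicates 2 or 3 (0.155 and 0.118), without the intensity trend (0.0714) and with every probe set tested as its own row (0.0516). Genes of its ligand family, Sectm1a and Sectm1b, were dim and did not pass.

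**Figure D2:**
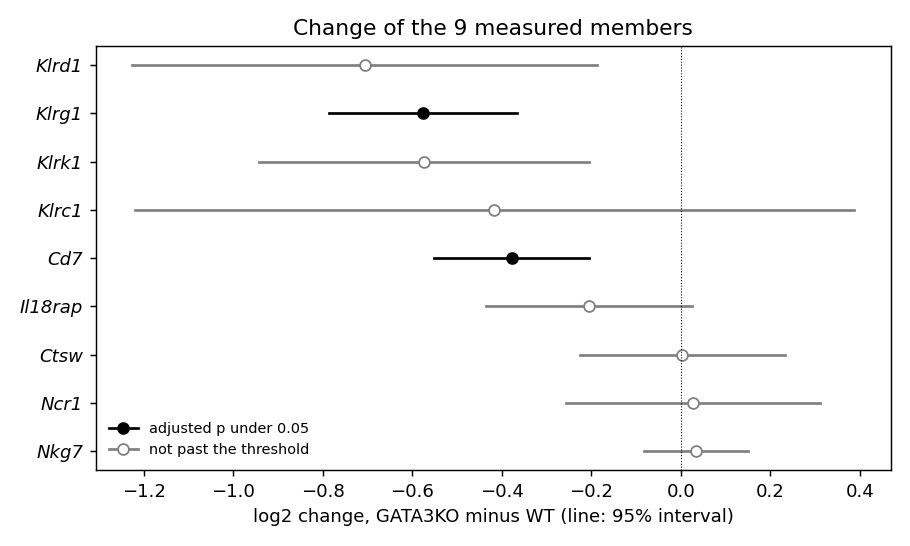
Log2 change (arrays labelled GATA3KO minus arrays labelled WT, horizontal axis) of the 9 measured genes, with 95% intervals from limma. Filled points (Klrg1 and Cd7) passed an adjusted p of 0.05, and the widest interval is that of Klrc1, from -1.22 to 0.39.

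Klrd1, Klrk1 and Klrc1 are neighbours in the NK gene complex. Klrd1 encodes CD94, which pairs with NKG2 proteins, Klrc1 encodes NKG2A, its inhibitory partner, and Klrk1 encodes NKG2D, an activating receptor for stress-induced ligands. In the gene order of assembly GRCm38.p6, Klrd1, Klrk1, Klrc3, Klrc2 and Klrc1 follow each other directly among protein-coding genes. Promoter windows of RefSeq (GRCm38.p6), 250 bases before and 50 after the transcript start, were matched for 6 of the 10 genes. No window was available for Klrg1, Klrd1, Cd7 or Ctsw, so the called members Klrg1 and Cd7 were not searched. The 4 that held a match to either motif searched are shown. Capitals mark AGATAA, with T also allowed as its first and G as its last letter, which is the sequence that GATA factors prefer, and GGTGTGA, a T-box core, each on either strand.
Klrk1 (chr6:129623815-129624114, minus strand): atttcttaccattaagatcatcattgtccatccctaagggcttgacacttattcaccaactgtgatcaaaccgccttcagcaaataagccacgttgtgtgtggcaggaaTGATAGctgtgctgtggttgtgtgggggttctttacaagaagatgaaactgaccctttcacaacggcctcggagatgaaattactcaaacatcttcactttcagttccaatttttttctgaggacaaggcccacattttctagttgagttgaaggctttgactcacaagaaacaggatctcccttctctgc
Klrc1 (chr6:129678924-129679223, minus strand): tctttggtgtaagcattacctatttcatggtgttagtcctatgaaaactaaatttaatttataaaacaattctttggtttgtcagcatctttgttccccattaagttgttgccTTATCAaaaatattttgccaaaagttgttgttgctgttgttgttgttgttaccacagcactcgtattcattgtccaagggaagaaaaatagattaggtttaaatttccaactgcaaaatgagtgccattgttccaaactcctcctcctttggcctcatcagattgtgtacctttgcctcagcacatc
Il18rap (chr1:40515112-40515411, plus strand): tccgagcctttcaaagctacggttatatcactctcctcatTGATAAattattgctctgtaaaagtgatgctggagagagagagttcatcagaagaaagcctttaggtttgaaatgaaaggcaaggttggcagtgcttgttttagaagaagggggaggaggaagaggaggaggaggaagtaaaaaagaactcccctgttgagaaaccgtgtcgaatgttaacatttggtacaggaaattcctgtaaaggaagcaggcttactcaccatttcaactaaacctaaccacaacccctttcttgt
Nkg7 (chr7:43436888-43437187, plus strand): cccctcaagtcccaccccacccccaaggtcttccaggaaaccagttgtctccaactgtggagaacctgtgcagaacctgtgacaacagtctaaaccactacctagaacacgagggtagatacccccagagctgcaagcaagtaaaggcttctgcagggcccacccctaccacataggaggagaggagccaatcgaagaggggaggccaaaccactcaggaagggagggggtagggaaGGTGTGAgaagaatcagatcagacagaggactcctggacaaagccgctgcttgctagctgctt
A GATA match was present in 3 of the 6 matched genes, and those of Klrb1c and Ncr1, not shown, held neither motif. The windows of Klrk1, Klrc1 and Il18rap each held 1, at bases 110, 114 and 41 from the 5′ end, that of Klrc1 on the opposite strand (TTATCA). Nkg7 held 0 GATA matches and 1 T-box match. Of 32851 promoter windows of this length, 29.8% held at least 1 GATA match and 3.98% the T-box letters, so the matches are a description of these windows and not of binding.

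Klrd1 had the largest change of the 9 genes and a wide error. Its probe set (1460245_at) read 5.64, 6.53 and 6.66 in replicates 1, 2 and 3 of the arrays labelled GATA3KO, against 6.79, 7.23 and 6.93 in those labelled WT. The groups did not overlap, and GATA3KO replicate 1 lay far below its group. The log2 change was -0.71 ± 0.23 (SE, 95% interval -1.23 to -0.19) and did not pass (limma adjusted p = 0.177). Without GATA3KO replicate 1 it was -0.39 (adjusted p = 0.191).

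Klrk1 had its highest and lowest values on the same arrays as Klrd1. Its probe set (1450495_a_at) read 5.93, 6.40 and 6.35 in replicates 1, 2 and 3 of the arrays labelled GATA3KO, and 6.44, 7.01 and 6.95 in those labelled WT. Replicate 1 was the lowest of its group on both sides, and GATA3KO replicate 2 came close to WT replicate 1 without reaching it. The log2 change was -0.57 ± 0.17 (SE, 95% interval -0.94 to -0.20, limma adjusted p = 0.121). It passed without WT replicate 1, at -0.75 (adjusted p = 0.0309), and in none of the other 5 fits with 1 array left out.

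Klrc1 was measured by a pair of probe sets, both dim. The brighter one (1425005_at) read 4.21, 5.63 and 5.85 in replicates 1, 2 and 3 of the arrays labelled GATA3KO, against 5.49, 6.01 and 5.44 in those labelled WT. The groups overlapped, and the low mean of the arrays labelled GATA3KO came from replicate 1. The SD of 0.89 there was larger than in 99.9% of genes. The log2 change was -0.42 ± 0.36 (SE, limma adjusted p = 0.678) with all arrays and 0.092 without GATA3KO replicate 1 (adjusted p = 0.872). The other (1426182_a_at) read 4.22, 4.56 and 4.68 in arrays labelled GATA3KO, and 4.71, 4.91 and 4.54 in arrays labelled WT, a change of -0.23 ± 0.14. It too was lowest in GATA3KO replicate 1. The genes between Klrk1 and Klrc1, Klrc3 and Klrc2, which encode NKG2E and NKG2C, were dimmer still, at 2.97 and 3.08 in arrays labelled GATA3KO and 3.14 and 3.02 in arrays labelled WT.

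Replicate 1 of the arrays labelled GATA3KO was thus the lowest of all 6 arrays for Klrd1, Klrk1, Klrc1 and Il18rap, 4 of the 9 genes. Replicates 2 and 3 of that group were the lowest for 1 gene each, and WT replicates 1, 2 and 3 for 2, 0 and 1. Each array labelled GATA3KO was the highest of the 6 for 0 genes, and each labelled WT for 3. How often each array was lowest over all genes was not counted. For Klrg1 and Cd7, GATA3KO replicate 1 was instead the highest of its own group. The SD of Klrd1 in arrays labelled GATA3KO (0.55) was larger than that of 99.7% of genes. In arrays labelled WT, the SDs of Klrd1, Klrk1 and Klrc1 (0.23, 0.31 and 0.31) were larger than those of 93.6%, 98.4% and 98.5% of genes, so these 3 neighbours varied between arrays within both groups.

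**Figure D3:**
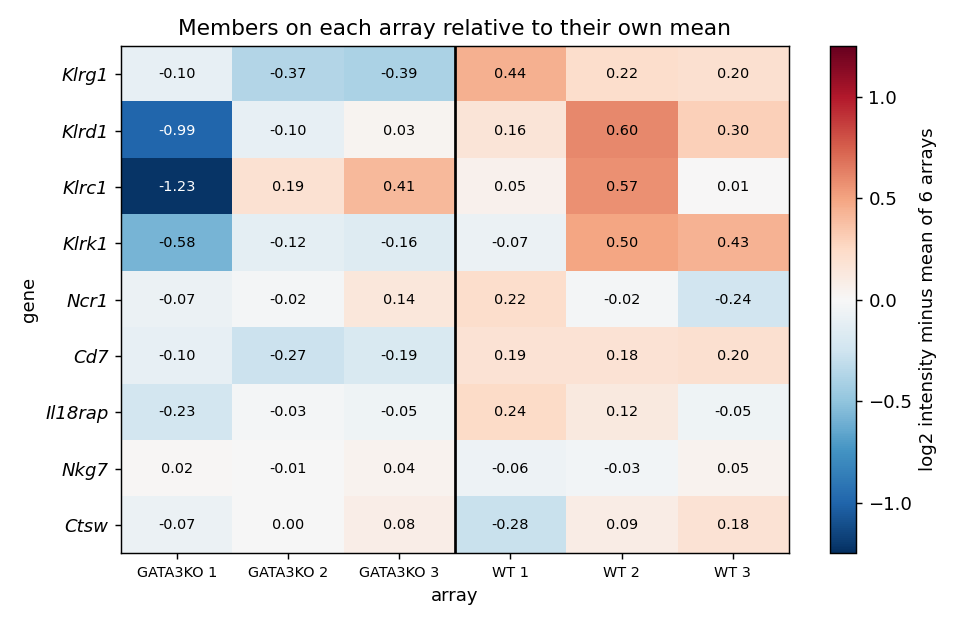
Log2 intensity of each gene (rows) on each array (columns) minus the gene's mean over the 6 arrays, with arrays labelled GATA3KO left of the line and those labelled WT right of it. Klrd1, Klrc1 and Klrk1 share a deep minimum in GATA3KO replicate 1 (-0.99, -1.23 and -0.58), while Klrg1 and Cd7 are negative on all 3 arrays labelled GATA3KO and positive on all 3 labelled WT.

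Markers of other cells were read on the same arrays. Of 11 genes that mark NK cells and type 1 innate lymphoid cells, 6 were measured, 5 were dim (Ncr1, Eomes, Itga2, Fcgr3 and Klra8) and 0 passed. Their mean level was 4.57, 4.61 and 4.74 in replicates 1, 2 and 3 of the arrays labelled GATA3KO, and 4.65, 4.57 and 4.46 in those labelled WT. These levels overlapped between the groups. With 5 of the 6 genes dim, they cannot show whether NK cells differed between arrays. Tyrobp, the gene that was not dim, is also among the myeloid markers. The part of NK cells in the low values of GATA3KO replicate 1 was not tested. The mean level of 15 measured myeloid and neutrophil markers was 5.35, 5.67 and 5.92 in replicates 1, 2 and 3 of the arrays labelled GATA3KO, above 5.27, 5.11 and 5.25 in those labelled WT, with 10 of the 15 dim and 13 of the 15 changes positive, and 1, Lyz1 of lysozyme, rose (1.44 ± 0.31 on the log2 scale, SE, limma adjusted p = 0.0468). The Lyz1 call rested on a probe set that can cross-hybridise: with such probe sets left out the change was -0.0092, and it passed in 2 of 6 fits with an array dropped (lost without WT replicates 2 or 3 and GATA3KO replicates 2 or 3). Before adjustment 6 of the 15 had a p under 0.05 (limma), against 14.4% of all genes. The groups did not overlap in 7, among them Cebpa, which was lower, against 19.8% of all genes. Lyz2 and S100a9, whose probe sets are not of that kind, were higher without overlap but did not pass. Their changes were 1.02 (limma adjusted p = 0.0849) and, dim, 1.10 (0.113). The part of myeloid cells in the values of Klrg1, Cd7, Klrd1 or Klrk1 was not tested. Cd8a and Cd8b1 of CD8 T cells, 9 B cell markers and 3 measured markers of gamma-delta and NKT cells had 0 genes past the threshold.

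Ncr1, which encodes the activating receptor NKp46 and marks NK cells, lay near the low end of the intensities. Its probe set (1422089_at) was dim, at 4.08, 4.13 and 4.30 in replicates 1, 2 and 3 of the arrays labelled GATA3KO, and 4.37, 4.14 and 3.92 in those labelled WT. The groups overlapped throughout, with a change of 0.027 ± 0.13 (SE, limma adjusted p = 0.953), and the percentile of its mean among all genes was 20.3. Its sign turned without WT replicate 3 (-0.084) or GATA3KO replicate 3 (-0.036).

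Il18rap encodes the accessory chain that completes the receptor for interleukin 18, a cytokine that activates NK and T cells. Its probe set (1421291_at) read 5.93, 6.13 and 6.11 in replicates 1, 2 and 3 of the arrays labelled GATA3KO, against 6.40, 6.28 and 6.10 in those labelled WT. The groups overlapped at WT replicate 3, and the change of -0.21 ± 0.10 (SE, 95% interval -0.43 to 0.02) did not pass (limma adjusted p = 0.409). The partner chain Il18r1 was bright, with means of 10.58 ± 0.090 in arrays labelled GATA3KO and 10.34 ± 0.16 in arrays labelled WT (SD, n = 3 each), and its change of 0.24 did not pass either (adjusted p = 0.167). Il18, the cytokine itself, rose 1.56-fold (log2 change 0.64 ± 0.14, SE, adjusted p = 0.0448), at 6.36, 6.41 and 6.70 in arrays labelled GATA3KO and 6.08, 5.86 and 5.59 in arrays labelled WT. Cells of the myeloid lineage are a well-known source of this cytokine, and the myeloid marker levels given above were also highest in GATA3KO replicate 3, and their part in the Il18 value was not tested. Among the fits that dropped each array in turn, the Il18 call held without WT replicate 1 (0.0240) and was lost in the other 5, at up to 0.182 without WT replicate 2. It was also lost without the intensity trend (0.123) and, with its own value unchanged, where probe sets were averaged for the genes that have several (0.0536).

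Nkg7 and Ctsw are granule genes of cytotoxic lymphocytes. Nkg7, whose membrane protein is needed for the release of cytotoxic granules, read (1450753_at) 8.70, 8.68 and 8.73 in replicates 1, 2 and 3 of the arrays labelled GATA3KO, and 8.62, 8.65 and 8.73 in those labelled WT. The groups overlapped, and the change was 0.034 ± 0.052 (SE, limma adjusted p = 0.836), with a 95% interval from -0.082 to 0.15. Ctsw, the gene of cathepsin W, a protease of NK and CD8 T cells, read (1422632_at) 9.53, 9.59 and 9.68 in replicates 1, 2 and 3 of the arrays labelled GATA3KO, and 9.32, 9.68 and 9.78 in those labelled WT. Its change was 0.0036 ± 0.10 (SE, limma adjusted p = 0.995), with a 95% interval from -0.23 to 0.23. These intervals leave out a change as large as the -0.58 of Klrg1 in either direction, and the difference between these genes and Klrg1 was not itself tested.

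**Figure D4:**
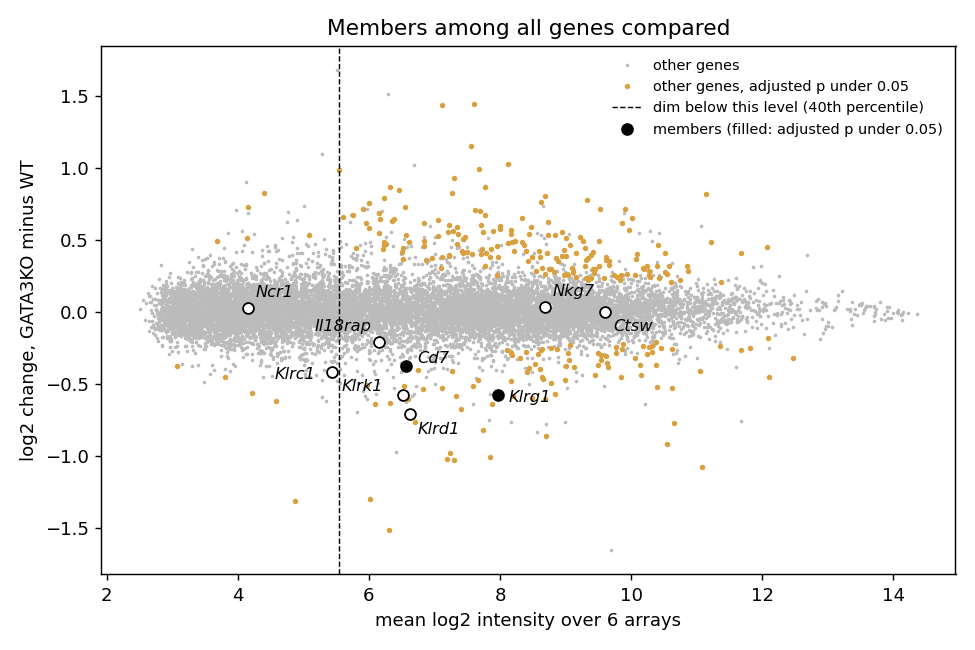
Log2 change (arrays labelled GATA3KO minus arrays labelled WT, vertical axis) against the mean log2 intensity over the 6 arrays (horizontal axis) for all 12394 genes compared. Black circles are the 9 measured genes, filled where the adjusted p was under 0.05, orange points are other genes past that threshold, and the dashed line is the dim level of 5.55, below which Klrc1 and Ncr1 lie.

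Other lectin-like receptors of NK and T cells gave little signal. Of 36 listed genes, 16 were measured and 13 of these were dim, among them all measured Ly49 (Klra) genes, Klrb1a, Klrb1b, Klrb1f, Klrc2 and Klrc3. In limma 0 rose and 0 fell. Before adjustment 3 of the 16 had a p under 0.05, all lower, against 14.4% of all genes in either direction and 5.8% lower. The groups did not overlap in 4, again all lower, against 19.8% in either direction and 8.51% lower. The median change was -0.080, against 0.0078 over all genes. The 3 with the smallest p were Clec2d (-0.48 ± 0.17, SE, limma adjusted p = 0.226) and, dim, Klrb1a (-0.24) and Klra1 (-0.20). Clec2d, which encodes a ligand of inhibitory NKR-P1 receptors, read 8.97, 8.89 and 8.91 in arrays labelled GATA3KO and 9.91, 9.27 and 9.03 in arrays labelled WT. Its groups did not overlap, but the arrays labelled WT were spread over most of a unit. In the stretch of the NK gene complex from Klrb1a to Klra1, chosen after values were seen, 22 of 42 protein-coding genes were measured, 15 of them dim. Of the 7 that were not dim (Clec2h, Clec2i, Clec2d, Clec7a, Gabarapl1, Klrd1 and Klrk1), 5 had a negative change. Over all genes, dim ones included, 47% did, and the share among genes that were not dim was not counted. In limma 0 passed. The groups did not overlap in 4 of the 7, against 26% of genes that were not dim. Over all 22 genes 5 had an unadjusted p under 0.05, all lower, against 14.4% of all genes in either direction and 5.8% lower. The groups did not overlap in 7 of the 22, again all lower, against 19.8% in either direction and 8.51% lower. These counts include Klrd1 and Klrk1, whose values were known when the stretch was chosen.

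The adaptors that carry NKG2D signals did not pass. NKG2D signals through DAP10, the product of Hcst, and in mouse also through DAP12, the product of Tyrobp. Hcst averaged 9.56 ± 0.014 in arrays labelled GATA3KO and 9.56 ± 0.061 in arrays labelled WT (SD, n = 3 each), with a change of -0.0040. Tyrobp, which myeloid cells also express, did not pass (0.48 ± 0.17, SE, limma adjusted p = 0.215). Of 19 measured adaptor and signalling genes 2 rose and 1 fell, where 1.44% of all genes were called higher and 0.766% lower. Their median change was 0.0074. Before adjustment 6 of the 19 had a p under 0.05 (limma), against 14.4% of all genes, and 5 did not overlap, against 19.8%. Fyn (0.32 ± 0.054, SE), a Src-family kinase, and Ptpn11 (0.32 ± 0.065), the gene of the phosphatase SHP-2 that inhibitory receptors recruit, rose, and Sh2d1a, the adaptor SAP of SLAM-family receptors, fell by 0.35. With 1 array left out Sh2d1a passed in 5 of 6 fits (lost without GATA3KO replicate 2), Fyn in 3 (lost without WT replicates 2 or 3 or GATA3KO replicate 2) and Ptpn11 in 1 (without WT replicate 1). With the mean of its 3 probe sets Ptpn11 had a change of 0.23 and did not pass (adjusted p = 0.303). Cd247 (-0.17, limma adjusted p = 0.109) and Fcer1g (0.31, 0.206), the latter also in the myeloid list, did not overlap between the groups but did not pass.

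In the remaining lists the called genes rose among ligands and granule contents and fell among transcription factors, and no co-receptor was called. Of 15 measured NK co-receptors, including Il2rb, Cd96, Cd160, Cd2 and Cd27, 0 passed in limma. Before adjustment 1, Il18r1, was under 0.05, against 14.4% of all genes, and 2 did not overlap, against 19.8%. Their median change was 0.016. In the ligand list Il18 rose, 1 of 15 genes, where 1.44% of all genes were called higher. Cd48 (0.10) and the class I genes H2-D1 (-0.087) and H2-K1 (0.017) did not pass. Before adjustment 2 of the 15 had a p under 0.05 (limma), against 14.4% of all genes, and 4 did not overlap, against 19.8%. Granule cargo had 3 of 16 genes higher and 0 lower, with a median of 0.040. Over all genes 1.44% were called higher and 0.766% lower. Before adjustment 5 of the 16 had a p under 0.05 (limma), against 14.4% of all genes, and 7 did not overlap, against 19.8%. Gzmb and Gzma, which encode granzymes B and A, rose by 1.45 and 0.99 on the log2 scale (limma adjusted p = 0.00037 and 0.0203), although the mean of Gzma was dim. Cst7, the gene of the cathepsin inhibitor cystatin F, rose by 0.72 (1.65-fold, adjusted p = 0.0214). Prf1, the gene of the pore-former perforin, did not pass (-0.21, adjusted p = 0.550). Ctsl (-0.58 ± 0.14, SE, limma adjusted p = 0.0674) and Ctsc (0.21, 0.102) did not overlap between the groups and did not pass either. With 1 array left out Gzmb passed in all 6 fits, and Gzma and Cst7 in 2 each. The calls of Gzma and Cst7 were lost without WT replicates 2 or 3 or GATA3KO replicate 2, and also without GATA3KO replicate 3 (Gzma) or 1 (Cst7).

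Of 11 measured transcription factors of NK and effector lymphocytes 2 fell and 0 rose, with a median of 0.018. Over all genes 0.766% were called lower and 1.44% higher. Before adjustment 3 of the 11 had a p under 0.05 (limma), against 14.4% of all genes, and 4 did not overlap, against 19.8%. Tbx21, which encodes T-bet, a factor of NK and Th1 cells, read 5.98, 5.85 and 6.16 in arrays labelled GATA3KO and 6.63, 6.77 and 6.51 in arrays labelled WT. It was 1.55-fold lower (log2 change -0.63 ± 0.10, SE, limma adjusted p = 0.0184), and the call was lost without WT replicate 2 (0.105) or GATA3KO replicate 2 (0.0824). Bach2 (log2 change -0.36), which holds back effector differentiation, also fell and passed in 3 of 6 fits, with losses without WT replicate 2, GATA3KO replicate 2 or GATA3KO replicate 3. Eomes and Zeb2, further factors of mature NK cells, were dim, and Id2, Runx3 and Prdm1 did not pass. Ets1 (-0.19, limma adjusted p = 0.190) did not overlap between the groups and did not pass either. Without the intensity trend Gzmb and Nrp1 kept their calls and Fyn, Ptpn11, Sh2d1a, Il18, Gzma, Cst7, Tbx21, Bach2, Tnfrsf4 and Lyz1 lost theirs.

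**Figure D5:**
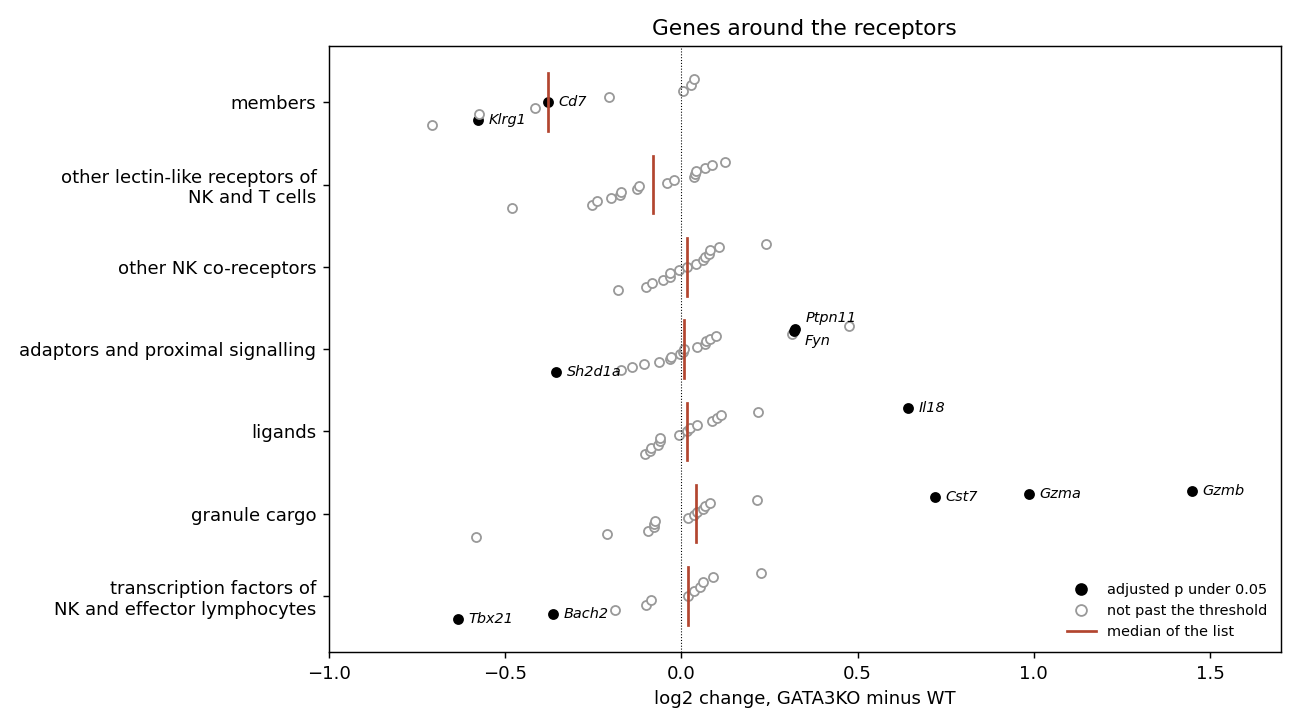
Log2 change (arrays labelled GATA3KO minus arrays labelled WT, horizontal axis) of every measured gene in 7 lists, 1 point per gene and a red line at each list's median. Filled, named points passed an adjusted p of 0.05: Klrg1 and Cd7 lie left of 0, as do Sh2d1a, Tbx21 and Bach2, and the 3 called granule genes, Il18, Fyn and Ptpn11 lie right of it.

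The genes whose values most resembled those of Klrg1 were sought among 7435 genes that were not dim, as a description over 6 arrays that include the difference between groups. Trim12a (Pearson r = 0.994), AI504432 (0.991), Helz2 (0.980), Samsn1 (0.976) and Misp (0.976) came highest, of which AI504432, Helz2 and Samsn1 fell in limma (log2 changes of -0.52, -0.23 and -0.49). For Klrk1 the nearest were Camk1d (0.996), Hsp90b1, Sh3bgrl2, Sptssa and Xiap (0.991), and for Klrd1 Smarce1 (0.993), Numb, Nudcd3, Ints13 and Mmachc (0.989), all with changes that did not pass. For Cd7 they were Rnf103 (0.989), Yy1, Cspp1, Map3k3 and Gng12 (0.981). For Il18rap the highest were Dnajc12 (0.994) and Lima1 (0.992), for Nkg7 Mrpl43 (0.988) and for Ctsw Topbp1 (0.988), none of which passed. No p is given, since each set of 5 was picked from all 7435 genes over only 6 arrays, and no member of the group was among the 5 nearest of another.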

How the data were processed

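Treg cell RNA was extracted with Trizol and labelled with biotin as cRNA, per the labels' protocols. The deposited values are log2 intensities of 22690 probe sets on 6 arrays, made by the authors with RMA (background correction, quantile normalization and probe summary), as the submitters' processing notes state without a version. The log2 scale was read from the range of the values. Array medians were 6.06 to 6.11. No scanner files were used, so detection calls, saturation and batches were not analysed here, and the number of arrays limits precision.

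Platform annotation listed 21084 probe sets, 20393 with 1 gene, 691 with several and 1606 not listed. Entrez identifiers matched GRCm38.p6 for 20364. The brightest probe set stood for each of 12394 genes, with no filter on dim values.

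Groups were taken from the titles and compared unpaired with limma 3.58.1 in R 4.3.3 (lmFit, and eBayes with an intensity trend), two-sided, with Benjamini-Hochberg adjustment over all genes and a threshold of 0.05. With 3 arrays against 3 the smallest exact permutation p is 0.1, so calls rest on limma's pooled spread. The fit was tested on simulated data. The members and lists were chosen with earlier results of these data known. Named were all members, the called genes of each list and, in some lists, further genes by p, and up to 5 of the nearest genes by correlation. Others (such as Hcst, H2-K1, Prf1, Sectm1b, Clec7a and Gabarapl1) were named for their role or position after values were seen. Python 3.11.15 with matplotlib 3.10.9 drew the figures.

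The alternatives tried were a block on replicate number, renewed quantile normalization, median centring, no intensity trend, robust variance, array quality weights, dim genes left out, other choices of probe set, other thresholds and each array left out. Every probe set as a row was added after seeing the data.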

Additional observations from a re-analysis of the deposited data

How the results depend on the processing

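Of the 9 members, Klrg1, Klrd1, Klrk1, Cd7 and Il18rap kept a negative change, and Nkg7 a positive one, in every alternative run. With all 6 arrays Klrg1 ranged from -0.62 to -0.58 and Cd7 from -0.41 to -0.37. The 2 calls became 0 without the intensity trend (Klrg1 -0.58, Cd7 -0.38) and at an adjusted p under 0.01 (the same values), and 1 with every probe set as a row, where Cd7 (-0.38) did not pass. With 1 array left out 0 to 2 members were called lower and 0 higher, with ranges of -0.67 to -0.50 for Klrg1, -0.42 to -0.34 for Cd7, -0.90 to -0.39 for Klrd1, -0.75 to -0.43 for Klrk1, -0.73 to 0.092 for Klrc1, -0.084 to 0.14 for Ncr1 and -0.13 to 0.10 for Ctsw. The reversals were those of Klrc1 without GATA3KO replicate 1 (0.092), Ncr1 without WT replicate 3 (-0.084) or GATA3KO replicate 3 (-0.036), and Ctsw without WT replicate 1 (-0.13), without GATA3KO replicate 3 (-0.036), with renewed quantile normalization (-0.0048) and with array quality weights (-0.0067), all on changes that did not pass. The cause was not tested. The marker Lyz1, called on an _x_at probe set, turned to -0.0092 without _x_at and _s_at probe sets, where its value comes from another probe set.

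Over all genes, 179 higher and 95 lower calls became 31 and 23 without the intensity trend, 400 and 185 with array quality weights, 343 and 182 at an adjusted p under 0.1 and 34 and 23 at 0.01. They ranged from 35 to 165 and from 24 to 105 with 1 array left out.

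Groups share replicate numbers that the labels do not say are paired. Deviations from the group means correlated by 0.139, 0.0498 and 0.166 for replicates 1, 2 and 3 over genes that were not dim, so a pairing was not assumed, although each array correlated best with its own number, as a hint from the data. With the replicate block Klrd1 (-0.71, adjusted p = 0.0404) and Klrk1 (-0.57, 0.0106) passed and Cd7 (-0.38, 0.0583) did not, Klrg1 kept its call (0.00257), Il18 lost its call (0.64, 0.0598), and 234 genes were higher and 134 lower. Groups of 3 arrays were too small for a test of single outlying arrays. Dim probe sets (Klrc1 and Ncr1) bound what can be read of those genes.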
